A study of Mus musculus with 32 samples.

Results

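Broad intervals of H3K4me3, the histone mark of active gene starts, were selected on their measured width among the intervals that testis cells of B6 and RJ2 mice have in common. An interval was kept when its end minus its start was at least 4000 bp, and 2816 of 41014 common intervals met this rule (6.87%). They covered 15.7 Mb, which is 24.4% of the length of all common intervals. They were compared with the 11097 common intervals of 1000 to 2000 bp, which covered 16.0 Mb.

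Each group is a genotype and an assay. PRDM9 was mapped by ChIP-seq in whole testes at 13 days after birth in B6 mice (strain C57BL/6JOlaHsd, PRDM9 Dom2 allele), in RJ2 mice (a C57BL/10 background that expresses the PRDM9 Cst allele), in B6 Spo11KO mice, which carry Dom2 and lack the nuclease SPO11, and in B6 Prdm9KO mice, which lack PRDM9. DMC1, at 5 weeks, was mapped in whole testes of both strains, and H3K4me3 in elutriated pachytene cells of adult B6 and RJ2 mice. PRDM9 had 2 ChIP libraries in B6, RJ2 and Spo11KO and 1 in Prdm9KO, DMC1 had 2 in each strain, and H3K4me3 had 1 in each strain. The PRDM9 serum was raised against the full-length Cst form of the protein and purified on the Dom2 form. Each PRDM9 ChIP pooled several mice, and the deposited lists pool the replicates and give positions without read counts, so depth per peak is unknown. Intervals and peaks, not mice, are therefore the units of every test, and the 95% intervals given here cover counting error only. H3K4me3 of pachytene cells was set beside PRDM9 of younger testes, which hold more cells of earlier stages, and stage and assay cannot be told apart.

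PRDM9 is a histone methyltransferase whose zinc fingers read DNA, and in most mammals it places H3K4me3 at the sites where meiotic recombination starts. SPO11 then cuts DNA near these sites, and DMC1 coats the single strands at the cut ends, so a DMC1 site marks a double-strand break hotspot. H3K4me3 found in both strains is mostly the mark of promoters and other regulatory elements, which does not depend on the allele of PRDM9. In many cell types the widest domains of the mark lie over genes of that cell's identity.

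Examples of the sequence at PRDM9 peaks within broad intervals are given first. The following 140-base stretches lie at the middle of peaks on mm9, plus strand, outside every annotated exon. The first set shows the B6 PRDM9 peaks without a DMC1 site in the widest intervals where the stretch met these conditions, with each CpG in capitals. They hold 7, 4 and 11 CpG and have a GC content of 59.3%, 55.7% and 65.0%. RJ2 PRDM9 peaks without a DMC1 site, chosen in the same way and not shown, were mixed. The stretch nearest the start of Tgif1 held 8 CpG at 63.6% GC, and that nearest Chn2 held 0 at 40.7%.
Wbp7, chr7:31374053-31374192, 378 bp from the start of Wbp7, in an interval of 12114 bp: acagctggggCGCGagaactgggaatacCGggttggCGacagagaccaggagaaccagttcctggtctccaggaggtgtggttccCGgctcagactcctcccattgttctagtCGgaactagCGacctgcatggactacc
Ttc12, chr9:49297199-49297338, 2939 bp from the start of Ttc12, in an interval of 10931 bp: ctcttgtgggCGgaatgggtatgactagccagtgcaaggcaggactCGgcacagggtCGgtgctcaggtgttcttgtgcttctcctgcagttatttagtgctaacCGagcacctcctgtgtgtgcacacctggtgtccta
Btbd10, chr7:120512957-120513096, 121 bp from the start of Btbd10, in an interval of 10268 bp: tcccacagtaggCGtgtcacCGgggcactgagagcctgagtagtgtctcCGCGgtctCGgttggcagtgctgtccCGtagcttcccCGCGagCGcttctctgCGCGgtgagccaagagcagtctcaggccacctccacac

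The second set shows B6 PRDM9 peaks with a DMC1 site of B6, from the widest intervals whose stretch also held the word given next. The word was thus a condition of display and not a result of it, and peaks in wider intervals were passed over. Capitals mark the word GGTGCTGCC on either strand with at most 1 base changed. This word of 9 letters was the one most enriched in the central 200 bp of the 1785 B6 PRDM9 peaks that lie outside all common intervals and carry DMC1. It was present unchanged in 4.99% of those, against 0.0560% of the same peaks moved by 10 kb (10000 bp).
Gm6611, chr16:32929991-32930130, 6757 bp from the start of Gm6611, in an interval of 8842 bp: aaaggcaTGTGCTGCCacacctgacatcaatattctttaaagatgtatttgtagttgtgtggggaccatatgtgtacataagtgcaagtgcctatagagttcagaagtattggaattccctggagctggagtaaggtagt
Pkm2, chr9:59508248-59508387, 3903 bp from the start of Pkm2, in an interval of 8669 bp: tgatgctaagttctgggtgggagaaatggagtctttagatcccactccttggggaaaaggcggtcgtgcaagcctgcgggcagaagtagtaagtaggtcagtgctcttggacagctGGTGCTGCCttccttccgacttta
Interval without a start on chromosome 3, chr3:156984532-156984671, 44360 bp from the nearest start, in an interval of 6596 bp: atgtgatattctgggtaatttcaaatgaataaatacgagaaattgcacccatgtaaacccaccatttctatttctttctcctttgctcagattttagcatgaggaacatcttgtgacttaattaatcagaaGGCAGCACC

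The third set shows RJ2 PRDM9 peaks with a DMC1 site of RJ2, chosen in the same way, with capitals on the word AAGGTCACA, which was found for RJ2 by the same procedure in 6560 peaks. It was present unchanged in 3.12% of those and in 0.320% of the same peaks moved. Capitals mark the first match in each stretch, and the stretch on chromosome 15 holds 2 matches, of which the overlapping second is in lower case.
Interval without a start on chromosome 15, chr15:90727739-90727878, 14763 bp from the nearest start, in an interval of 8438 bp: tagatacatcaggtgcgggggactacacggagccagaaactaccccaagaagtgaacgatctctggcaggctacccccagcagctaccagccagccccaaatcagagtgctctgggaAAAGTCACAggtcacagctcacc
Rbm47, chr5:66562004-66562143, 2282 bp from the start of Rbm47, in an interval of 8354 bp: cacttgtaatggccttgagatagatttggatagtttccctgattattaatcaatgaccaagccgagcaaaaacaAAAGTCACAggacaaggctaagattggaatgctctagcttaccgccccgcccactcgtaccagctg
Interval without a start on chromosome 19, chr19:37338622-37338761, 26676 bp from the nearest start, which is that of Ide, in an interval of 6060 bp: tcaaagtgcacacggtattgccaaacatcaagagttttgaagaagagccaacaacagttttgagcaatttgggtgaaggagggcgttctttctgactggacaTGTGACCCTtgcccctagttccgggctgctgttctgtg

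The broad intervals had a median width of 5105.5 bp, with 25% under 4457 bp, 25% above 6198.5 bp and the widest at 16265 bp. Width chose them and is given as a description. Just inside the limit lay 3 intervals of 4000 bp, on chromosome 1, on chromosome 4 and over the starts of Higd2a and Nop16 on chromosome 13. Just outside lay 3 of 3999 bp, over Hnrnph1, over Pomt1 and on chromosome 19 without a start. None of these 6 held a peak of PRDM9 or DMC1.

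Broad intervals held a start of an annotated transcript (GENCODE vM1) in 1614 of 2816 cases (57.3%, 95% interval 55.5 to 59.2%), against 3083 of 11097 intervals of 1000 to 2000 bp (27.8%). A wider interval catches more starts by its length, and the centre of the interval lay within 1000 bp of a start in 35.7% of broad intervals and 39.5% of the narrower ones. Starts of 2 or more protein-coding genes were present in 262 broad intervals (9.30%), and in 220 of them (7.81%) a pair of genes was transcribed away from each other, against 1.52% of the narrower intervals. Of the broad length, 11.9% was exonic, 46.6% intronic and 41.5% intergenic. These shares were 11.3%, 44.7% and 44.0% in the narrower intervals, each within 3 percentage points of the broad ones.

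The X chromosome, which is silenced in pachytene spermatocytes, held 7 of its 1425 common intervals as broad ones (0.491%, 95% interval 0.198 to 1.01%). On the 19 autosomes the share ranged from 5.91% on chromosome 4 to 8.29% on chromosome 16, and every autosome was above the X.

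The 10 widest intervals lay over genes of mixed roles. The widest, on chromosome 2 from 25065616 to 25081880, held the starts of 4 protein-coding genes, among them Tubb2c, a beta tubulin, and carried 1 RJ2 PRDM9 peak. The third, of 14596 bp on chromosome 11, held Med31, a subunit of the Mediator complex, with Txndc17 and 4933427D14Rik, and also carried 1 RJ2 PRDM9 peak. Zfp169 lay in an interval of 14026 bp and Cdc42se1 with Gm128 in one of 13186 bp, both without a peak of any list. Angel1 and Gm6772 shared an interval of 13653 bp on chromosome 12 that carried 1 Prdm9KO peak and 1 RJ2 DMC1 site. Of the 10 widest, 4 held no start, and the widest of these, 14668 bp on chromosome 10 with its centre 7771 bp from the start of Ddx50, carried no peak.

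Genes of the later steps of sperm formation had the highest share of starts in broad intervals among the lists counted. Of 22238 protein-coding genes, 1693 (7.61%) had a start in a broad interval. Only 8929 (40.2%) had one in any common interval, so 7.61% is a low base for lists whose genes mostly lie in common intervals. In a list of 18 spermatid genes the count was 13 (72.2%, 95% interval 46.5 to 90.3%). Tssk1 and Tssk2, kinases of spermatids, shared an interval of 12044 bp on chromosome 16. Tnp1, a transition protein that replaces histones, lay in one of 11009 bp, Acrv1 of the acrosome in one of 8966 bp, Odf1 of the sperm tail in one of 8722 bp, and Ldhc and Pgk2, sperm-type enzymes of glycolysis, in 7988 and 7867 bp. The exceptions were Tnp2 (2496 bp), Tssk6 (2126 bp), Spaca1 (1253 bp), the X-linked Akap4 (1548 bp) and Prm1, whose start lay in no common interval, while the start of its neighbour Prm2 lay in one of 5275 bp.

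The piRNA pathway, which silences transposons in the germ line, had 12 of 17 genes in common intervals and 5 in broad ones (29.4%, 95% interval 10.3 to 56.0%). The 5 were Pld6 at 11326 bp, Tdrd9 at 10469 bp, Tdrd1 at 6102 bp, Gtsf1 at 5665 bp and Mov10l1 at 5107 bp. The meiotic prophase list had 27 of 32 genes in common intervals and 2 in broad ones (6.25%, 95% interval 0.766 to 20.8%). The 7.61% of all genes is a low base for it. Of genes with a start in a common interval, 2 of 27 in this list had one in a broad interval, against 1693 of 8929 protein-coding genes. The 2 genes were Sycp3 of the synaptonemal complex at 5660 bp and Smc1b, a meiotic cohesin, at 4911 bp. Rec8, another meiotic cohesin, missed the limit at 3981 bp, and Spo11 and Prdm9 themselves lay in intervals of 1686 and 1603 bp. Proteasome subunits had 7 of 31 (22.6%), led by Psma3 at 7301 bp, and ribosomal proteins 6 of 50 (12.0%), led by Rpl35 at 6174 bp. In any common interval lay 30 of the 31 and 49 of the 50, against 40.2% of all genes, so these 2 shares are not read as raised. Developmental transcription factors had 2 of 106 (1.89%), among them Pax5 at 5023 bp, and only 11 of the 106 lay in any common interval. These shares are descriptions, since the lists were chosen with results of these data known and a list was given no test.

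Markers of somatic cells of the testis were absent from the broad intervals. None of the 30 markers of Sertoli, Leydig, peritubular and macrophage cells had a start in a broad interval, which allows a share of up to 11.6%, and none had one in any common interval. Of 15 spermatogonia markers none was in a broad interval (up to 21.8%), and Uchl1 (1133 bp) and Id4 (399 bp) were the 2 in a common interval.

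**Figure D1:**
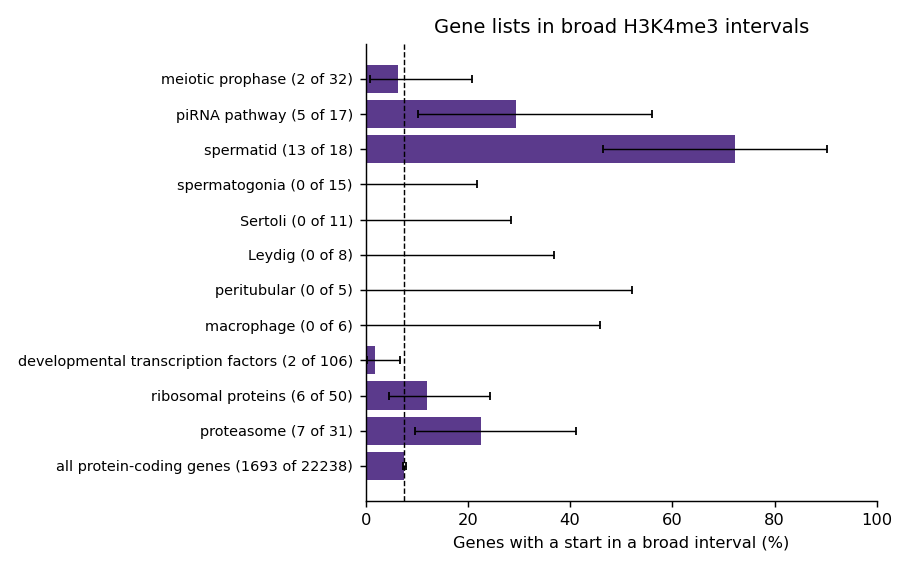
Share of each gene list with an annotated start in a common H3K4me3 interval of at least 4000 bp (horizontal axis, %), with 95% Clopper-Pearson intervals as bars and the share of all protein-coding genes, 7.61%, as the dashed line. The spermatid list stands at 72.2%, the piRNA list at 29.4%, and the spermatogonia and somatic lists at 0.

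Most broad intervals held no peak of any list. A peak of at least 1 of the 6 lists (PRDM9 in 4 genotypes, DMC1 in 2 strains) was present in 349 of 2816 broad intervals (12.4%), and 85 (3.02%) held 2 or more peaks. A PRDM9 peak was counted when at least 10% of it lay in the interval, and a DMC1 site when its central 400 bp touched it.

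Per interval, every list met broad intervals more often than the narrower ones. Broad intervals were chosen by width, with a median of 5105.5 bp against 1413 bp. A longer interval meets more peaks by its length alone, so the p-values of this comparison do not show a preference for broad intervals. PRDM9 of B6 was present in 91 broad intervals (3.23%, 95% interval 2.61 to 3.95%), against 153 of the narrower ones (1.38%) and 1.36% of all common intervals. PRDM9 of RJ2 was present in 112 (3.98%, 95% interval 3.29 to 4.77%), against 209 (1.88%) and 1.78% of all. DMC1 of B6 met 102 (3.62%), against 124 (1.12%) and 1.41% of all. DMC1 of RJ2 met 106 (3.76%), against 111 (1%) and 1.26% of all. By Fisher's exact test, two-sided and Benjamini-Hochberg adjusted over the 6 lists, p was 8.91e-10 for PRDM9 of either strain, 5.11e-17 for DMC1 of B6 and 1.51e-20 for DMC1 of RJ2.

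The mutant lists were sparse. PRDM9 of Spo11KO was present in 6 broad intervals (0.213%) and 6 narrower ones (0.0541%), with 0.0902% over all common intervals (adjusted p = 0.0246, Fisher's exact test). Peaks of Prdm9KO, a list that cannot come from PRDM9, were present in 21 (0.746%) and 45 (0.406%), with 0.373% over all (adjusted p = 0.0299, Fisher's exact test). The authors called this list at a looser p-value than those of B6 and RJ2. Its shares and rates are thus not on one scale with theirs. The Prdm9KO excess, which ran in the same direction as that of PRDM9, was no longer past 0.05 for intervals of at least 5000 bp (adjusted p = 0.290, Fisher's exact test). For wide peaks the Prdm9KO share missed it as well (adjusted p = 0.0556, Fisher's exact test). For Spo11KO the excess was lost when intervals under 1000 bp apart were merged before the width rule (adjusted p = 0.323, Fisher's exact test).

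Per length the picture was different. A broad interval offers more bases, and counted as peak centres per Mb of interval, PRDM9 was less dense in broad intervals. B6 PRDM9 had 90 centres in broad intervals, or 5.72 per Mb, and 134 in the narrower ones, or 8.38 per Mb, a ratio of 0.682 (95% interval 0.517 to 0.898, adjusted p = 0.0149, conditional exact binomial test, two-sided). RJ2 PRDM9 had 108 centres, or 6.86 per Mb, against 174, or 10.9 per Mb, a ratio of 0.631 (0.491 to 0.806, adjusted p = 9.95e-04, conditional exact test). DMC1 of B6 stood at 6.10 and 6.13 per Mb, a ratio of 0.995 (0.743 to 1.33), and DMC1 of RJ2 at 6.23 and 5.07 per Mb, a ratio of 1.23 (0.907 to 1.67, adjusted p = 0.268, conditional exact test). Counted by any 1 bp of the wide DMC1 sites, both were lower in broad intervals, with ratios of 0.684 in B6 and 0.726 in RJ2 (adjusted p = 0.00132 and 0.0093, conditional exact test). That count adds more hits in narrow intervals by construction, so it cannot show a lower density.

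The lower density of PRDM9 depended on how intervals and peaks were taken. With intervals under 1000 bp apart merged first, the ratios were 0.832 for B6 and 0.774 for RJ2 and neither passed (adjusted p = 0.243 and 0.113, conditional exact test). For peaks at least as wide as the median of their list the ratio was 0.977 for B6 and 0.665 for RJ2, again not past 0.05 (adjusted p = 1 and 0.146, conditional exact test). For intervals of at least 3000 bp the B6 ratio was 0.771 (adjusted p = 0.0546, conditional exact test). Spo11KO PRDM9 had a ratio of 1.02 on 6 centres in each set (0.272 to 3.80), and Prdm9KO peaks one of 0.556 (0.319 to 0.947, adjusted p = 0.0502, conditional exact test).

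**Figure D2:**
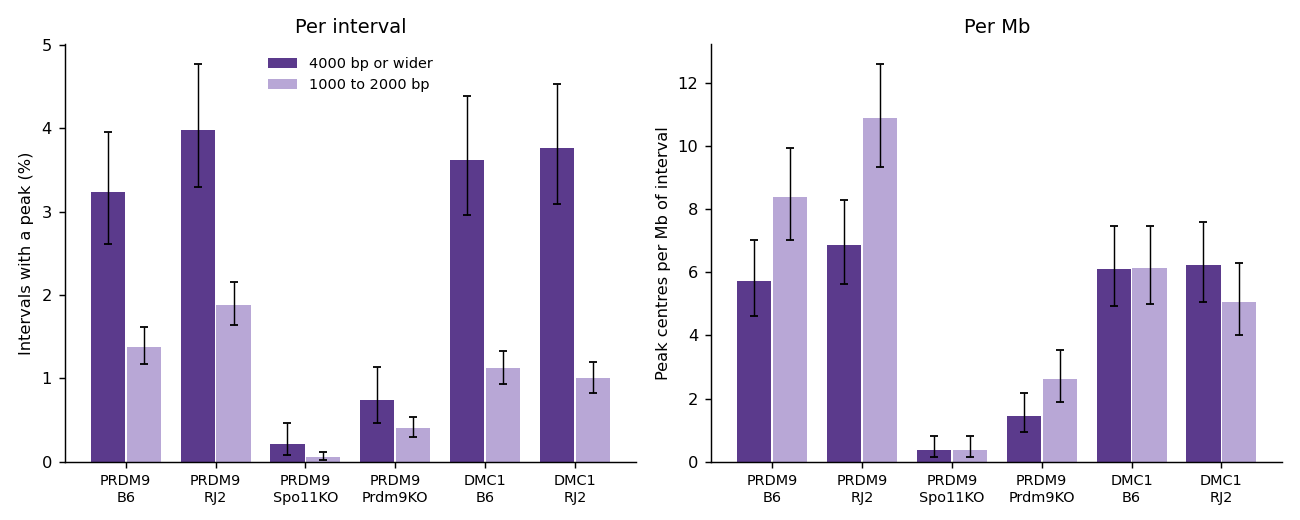
Left, share of intervals with a peak (%) for each of the 6 lists, in common H3K4me3 intervals of at least 4000 bp (dark) and of 1000 to 2000 bp (light). Right, peak centres per Mb of the same intervals. Bars are exact 95% intervals, and PRDM9 of B6 and RJ2 is higher in broad intervals on the left and lower on the right, while DMC1 of B6 is about level on the right at 6.10 and 6.13 per Mb.

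Both ways of counting were followed over the range of widths. The share of intervals with a B6 PRDM9 peak was 0.436% at 1 to 499 bp, 1.38% at 1000 to 1999 bp, 2.45% at 4000 to 5999 bp and 7.56% at 8000 bp and more (17 of 225). In centres per Mb, B6 PRDM9 was between 6.95 and 8.60 in the classes under 4000 bp, 5.00 at 4000 to 5999 bp, 6.26 at 6000 to 7999 bp and 7.93 at 8000 bp and more (95% interval 4.62 to 12.7), so that it did not fall steadily and the widest class was near the 8.38 per Mb of the 1000 to 2000 bp intervals. RJ2 PRDM9 went from 13.1 at 500 to 999 bp to 10.8 at 1000 to 1999 bp and 6.77 at 4000 to 5999 bp. At 8000 bp and more it was 8.87 per Mb on 19 centres (95% interval 5.34 to 13.8), which overlaps the 95% intervals of the 4000 to 5999 bp class and of the 1000 to 1999 bp class. DMC1 of B6 was 12.1 per Mb at 500 to 999 bp and between 5.51 and 6.57 per Mb in all classes from 1000 bp on.

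**Figure D3:**
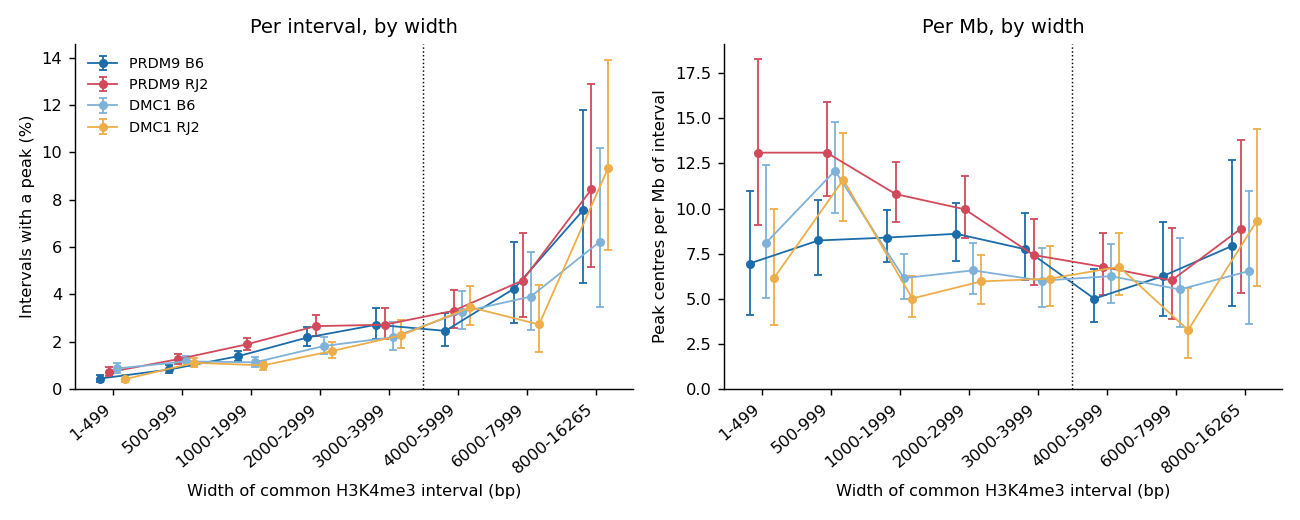
Share of common H3K4me3 intervals with a peak (left, %) and peak centres per Mb (right) by width of the interval in bp, for PRDM9 and DMC1 of B6 and RJ2, with exact 95% intervals as bars and the 4000 bp limit as a dotted line. The share of intervals is highest in the widest class, between 6.22% and 9.33%, while peaks per Mb of RJ2 PRDM9 go from 13.1 in the narrowest class to 8.87 in the widest and those of RJ2 DMC1 vary between 3.26 and 11.6.

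In windows of equal length, no difference was past the threshold. The central 1000 bp held a B6 PRDM9 peak in 34 broad intervals (1.21%) and 129 narrower ones (1.16%, adjusted p = 0.845, Fisher's exact test). For RJ2 PRDM9 the shares were 0.959% and 1.57%, and for DMC1 of B6 0.497% and 0.919% (adjusted p = 0.0813 for both, Fisher's exact test). DMC1 of RJ2 went the other way, with 1.07% and 0.748% (adjusted p = 0.199, Fisher's exact test).

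Among intervals with a start PRDM9 was less dense in the broad ones, and DMC1 of RJ2 was denser. In 1614 broad and 3083 narrower intervals with a start, B6 PRDM9 had 8.59 against 20.1 centres per Mb, a ratio of 0.428 (95% interval 0.313 to 0.583, adjusted p = 2.32e-07, conditional exact test). RJ2 PRDM9 had 7.95 against 16.0 per Mb, a ratio of 0.497 (adjusted p = 7.33e-05, conditional exact test), and Prdm9KO peaks 1.5 against 3.89 per Mb, a ratio of 0.387 (adjusted p = 0.0119, conditional exact test). DMC1 of RJ2 had 6.23 against 2.16 per Mb, a ratio of 2.88 (1.46 to 6.33, adjusted p = 0.00147, conditional exact test). DMC1 of B6 had 6.12 against 3.67 per Mb, a ratio of 1.67 (0.956 to 3.06) that did not pass (adjusted p = 0.0774, conditional exact test), and it passed when starts within 1000 bp of the interval counted too (ratio 1.97, adjusted p = 0.00443, conditional exact test). In intervals without a start, given with no test, the ratios were 0.431 for B6 PRDM9 (0.193 to 0.875), 0.601 for RJ2 PRDM9 (0.395 to 0.895), 0.851 for B6 DMC1 (0.565 to 1.26) and 0.996 for RJ2 DMC1 (0.658 to 1.49).

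The zones near starts and away from them were then counted apart. Within 500 bp of a start lay 2.29 Mb of the broad intervals and 3.39 Mb of the narrower ones. There B6 PRDM9 had 31.0 centres per Mb in broad intervals (95% interval 24.2 to 39.0) and 32.1 in the narrower ones (26.4 to 38.8), while away from starts it had 1.41 and 1.98 per Mb. RJ2 PRDM9 had 16.1 and 22.1 per Mb near starts and 5.28 and 7.86 away from them. DMC1 of B6 had 4.36 per Mb near starts and 6.40 away from them in broad intervals, and 4.13 and 6.67 per Mb in the narrower ones. DMC1 of RJ2 had 5.67 per Mb near starts in broad intervals, on 13 sites, and 0.295 in the narrower ones, on 1 site, and 6.32 and 6.35 per Mb away from starts. Counted per interval with a start, 70 of 1614 broad intervals (4.34%, 95% interval 3.40 to 5.45%) and 90 of 3083 narrower ones (2.92%, 2.35 to 3.58%) had a B6 PRDM9 peak within 500 bp of a start. These splits are given with no test.

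B6 PRDM9 lay mostly at the starts within broad intervals, and DMC1 did not. Of 90 B6 PRDM9 peaks centred in broad intervals, 71 (78.9%, 95% interval 69.0 to 86.8%) were within 500 bp of a start, a zone that makes up 14.6% of the broad length, and their median distance was 123.5 bp. For RJ2 PRDM9 it was 37 of 108 (34.3%, 25.4 to 44.0%) with a median of 1471 bp. For DMC1 it was 10 of 96 in B6 (10.4%, median 3188.5 bp) and 13 of 98 in RJ2 (13.3%, median 2965.5 bp), both near the share of length. None of 6 Spo11KO PRDM9 peaks was that close (up to 45.9%), and 10 of 23 Prdm9KO peaks were (43.5%, 23.2 to 65.5%).

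B6 PRDM9 peaks also lay in the central 50% of the interval in 62 of 90 cases (68.9%, 58.3 to 78.2%), while DMC1 of B6 did so in 38 of 96 (39.6%, 29.7 to 50.1%) and was within 1000 bp of an edge in 47.9%, where 35.8% of the broad length lies. DMC1 of RJ2 was in the central 50% in 53 of 98 cases (54.1%) and within 1000 bp of an edge in 34.7%, near the share of length. RJ2 PRDM9 stood at 52.8% and 33.3%, so the placement of either B6 list was not seen in RJ2. The starts closest to a B6 PRDM9 peak were those of Atf2, a transcription factor, at 0 bp, of Tacc3, a spindle protein, Pcnt, a centrosome protein, and Ccdc103, each at 1 bp, and of Rpl27a of the ribosome at 2 bp. These 5 genes were chosen after their values were seen. Of the 91 broad intervals with B6 PRDM9, 81 held a start (89.0%), against 57.3% of all broad intervals, and their median width was 5763 bp against 5105.5 bp. Starts of 2 or more protein-coding genes lay in 22 (24.2%, 95% interval 15.8 to 34.3%), against 9.30% of all. Among those with a start this was 22 of 81, against 262 of 1614, so much of the difference goes with holding a start. For RJ2 PRDM9 it was 14 of 112 (12.5%, 7.01 to 20.1%).

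**Figure D4:**
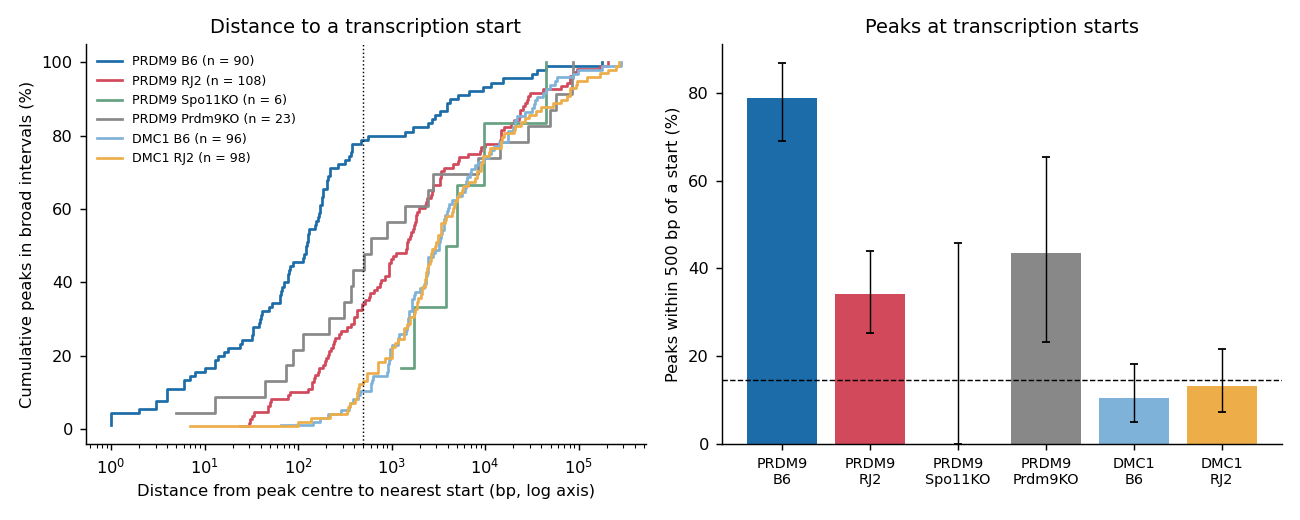
Left, cumulative share (%) of peaks centred in broad intervals by the distance of the peak centre to the nearest annotated transcription start (bp, log axis, with 0 drawn at 1), for each list. Right, share within 500 bp of a start (%), with exact 95% intervals and the share of broad length in that zone, 14.6%, as the dashed line; B6 PRDM9 stands at 78.9% and both DMC1 lists at or under 13.3%.

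PRDM9 peaks in broad intervals carried DMC1 less often than those in no common interval, which include peaks in strain-specific H3K4me3. In B6, 18 of 92 PRDM9 peaks in broad intervals had a DMC1 site of B6 (19.6%, 95% interval 12.0 to 29.1%), against 13 of 148 in the narrower intervals (8.78%, 4.76 to 14.6%) and 1785 of 2069 in no common interval (86.3%, 84.7 to 87.7%). In RJ2 the counts were 54 of 115 (47.0%, 37.6 to 56.5%), 55 of 206 (26.7%, 20.8 to 33.3%) and 6560 of 9413 (69.7%). The intervals of the shares in broad intervals and outside did not overlap in either strain. A low share was not particular to broad intervals, since it was lower still in the narrower ones. In RJ2 the 95% intervals of broad and narrower did not overlap either, with the higher share in broad intervals, while in B6 they did overlap. No Prdm9KO peak in a broad interval had DMC1 of B6 (0 of 23, which allows up to 14.8%). Seen from DMC1, 17 of 102 B6 sites in broad intervals met a PRDM9 peak (16.7%) and 53 of 107 RJ2 sites did (49.5%), close to the shares outside common intervals, 12.5% and 44.8%. Both marks of a strain were present in 17 broad intervals for B6 and 52 for RJ2.

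When only PRDM9 peaks with DMC1 were counted, an alternative added after seeing the data, the ratio of peaks per Mb in broad over narrower intervals was 1.35 for B6 and 1.26 for RJ2, neither past the threshold (adjusted p = 0.683 for both, conditional exact test).

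The base composition of these peaks also differed between the places. A centre was called CpG-rich when its 200 bp had at least 55% GC and a ratio of observed to expected CpG of at least 0.65. Of B6 PRDM9 peaks in broad intervals 49 of 92 were CpG-rich (53.3%, 95% interval 42.6 to 63.7%), against 83 of 148 in the narrower intervals (56.1%, 47.7 to 64.2%) and 24 of 2069 in no common interval (1.16%). For RJ2 it was 13 of 115 (11.3%, 6.16 to 18.6%), against 16.5% in the narrower intervals (11.7 to 22.3%) and 1.03% in none. The trait was thus shared by both widths of interval. None of 102 B6 DMC1 sites (which allows up to 3.55%) and 1 of 107 RJ2 sites in broad intervals was CpG-rich. The broad intervals as a whole were not rich in CpG, with a median GC of 45.0% and a median CpG ratio of 0.244, and the narrower intervals had 47.2% and 0.335. In broad intervals with a start, the central 1000 bp had a median GC of 47.2% and the outer 1000 bp at both ends one of 44.3%.

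The words shown above, which were chosen on peaks with DMC1 outside the common intervals, were counted in the broad ones. Allowing 1 changed base, GGTGCTGCC was present in the central 200 bp of 6 of 18 B6 PRDM9 peaks with DMC1 in broad intervals (33.3%, 95% interval 13.3 to 59.0%) and of 8 of 74 without (10.8%, 4.78 to 20.2%). Of all 200 bp windows laid end to end through the broad intervals, 4.97% held it. The windows are not matched to the peaks in base composition. B6 PRDM9 peak centres in broad intervals had a median GC of 58.2%, against 45.0% for the whole intervals. AAGGTCACA was present in 14 of 54 RJ2 PRDM9 peaks with DMC1 (25.9%, 15.0 to 39.7%) and 3 of 61 without (4.92%, 1.03 to 13.7%), against 7.06% of all windows. DMC1 sites themselves held the word of their strain in 13 of 102 cases in B6 (12.7%) and 25 of 107 in RJ2 (23.4%). In intervals of 1000 to 2000 bp, PRDM9 peaks with DMC1 held the word in 46.2% of cases in B6 and 25.5% in RJ2. Those without DMC1 held it there in 12.6% and 11.9%, so the trait was not particular to broad intervals. A word is a run of letters and not a shown binding site.

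**Figure D5:**
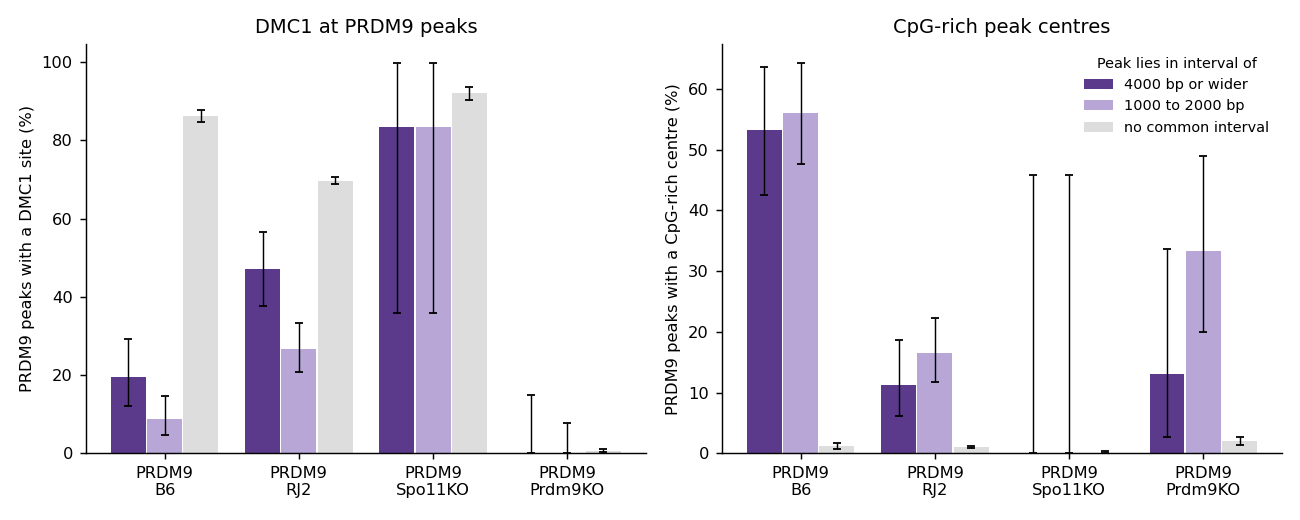
Share of PRDM9 peaks with a DMC1 site of the strain (left, %, with B6 DMC1 used for the mutants) and with a CpG-rich central 200 bp (right, %), for peaks in broad intervals, in intervals of 1000 to 2000 bp and in no common interval, with exact 95% intervals. In B6, 19.6% of the PRDM9 peaks in broad intervals have DMC1 and 53.3% are CpG-rich, against 86.3% and 1.16% of those in no common interval. Those in intervals of 1000 to 2000 bp stand at 8.78% and 56.1%.

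Without SPO11, PRDM9 was rarely listed in common intervals of either width. Of the 2601 B6 PRDM9 peaks 92 lay in broad intervals (3.54%, 95% interval 2.86 to 4.32%), and of the 1070 Spo11KO peaks 6 did (0.561%, 0.206 to 1.22%), a ratio of 6.31 (p = 1.36e-08, Fisher's exact test over peaks). In the narrower intervals lay 5.69% of the B6 and 0.561% of the Spo11KO peaks, and in all common intervals 20.5% and 3.36%. Of the peaks in common intervals the broad ones held a like part in both lists, 17.3% and 16.7%. With as many B6 peaks, from the top of the deposited list, as the Spo11KO list holds, in an order the files do not explain, 49 of 1070 lay there (4.58%), and the ratio was 8.17 (p = 1.18e-09, Fisher's exact test). Only 5 of the 92 B6 peaks in broad intervals met a Spo11KO peak (5.43%, 1.79 to 12.2%), with 4 of 148 in the narrower ones (2.70%, 0.741 to 6.78%) and 894 of 2069 in no common interval (43.2%, 41.1 to 45.4%). Each genotype gives 1 pooled list, and a difference in depth or in the number of peaks kept between the lists was not tested beyond this match in number. Many B6 peaks lie where a Spo11KO peak does (894 of 2069 in no common interval), while Fisher's test takes the 2 lists as independent. Its p-values are thus approximate.

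The 6 Spo11KO peaks lay apart from starts, and 5 of them met a DMC1 site of B6 (83.3%, 95% interval 35.9 to 99.6%). The interval of 8669 bp on chromosome 15 from 74644975 to 74653643, over Gml and Hemt1, held 1 peak each of B6 PRDM9, Spo11KO PRDM9 and B6 DMC1, and so did intervals of 6596 bp on chromosome 3, 5682 bp near Zfand3, 4810 bp near Acsl1 and 4443 bp over Arih1, a ubiquitin ligase. The sixth, of 5747 bp on chromosome 10 with its centre 10413 bp from the start of Dux, held a Spo11KO peak of 2308 bp and no peak of B6 or DMC1.

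PRDM9 of B6 and of RJ2 met in 1 broad interval, of 8354 bp over Rbm47 on chromosome 5, which held 1 PRDM9 and 1 DMC1 peak of each strain. Peaks found in both strains had been removed by the authors, so few shared places follow from that step. DMC1 of both strains was present in 8 broad intervals, among them that of Jarid2, a subunit of Polycomb complexes, which also held 1 RJ2 PRDM9 peak. The widest intervals with PRDM9 and DMC1 of RJ2 were one of 12763 bp with its centre 16753 bp from the start of Lpin1, one of 11535 bp 27026 bp from that of C2cd4b, and one of 10118 bp over Cftr, the chloride channel gene. For B6 they were one of 9414 bp on chromosome 14 without a start, that of Gm6611 and that of Gml and Hemt1.

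At spermatid genes DMC1 of RJ2 was present in 4 of the 12 broad intervals that hold the 13 genes (33.3%, 95% interval 9.92 to 65.1%), against 3.76% of all broad intervals, with no test. Among them were the interval shared by Tssk1 and Tssk2 and those of Odf1 and Prm2, with DMC1 of B6 over Odf1, while no broad interval of that list held B6 PRDM9. Several broad intervals of that list exceed 8000 bp, a width at which 9.33% of common intervals held DMC1 of RJ2, so 3.76% is a low base. The spermatid list with RJ2 DMC1 is also only 1 of many pairs of gene list and peak list that were counted. The interval of Rpl4 and Zwilch held 2 B6 PRDM9 peaks, the only broad interval to do so. B6 PRDM9 was also present over Psmd1 of the proteasome and over Smc1b with its neighbour Ribc2, 4 bp from the start of Ribc2.

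Of the 21 broad intervals with a Prdm9KO peak, 5 also held an RJ2 PRDM9 peak, among them those of Rangap1 at 8166 bp and of 9330104G04Rik at 6807 bp. In all 5 the RJ2 peak touched a Prdm9KO peak, so that it cannot be told apart from signal without PRDM9. Over the whole lists 252 of 10121 RJ2 peaks (2.49%), 2 of 2601 B6 peaks and 13 of 1070 Spo11KO peaks touched a Prdm9KO peak. Pax5, a B cell factor, held 2 Prdm9KO peaks and no other. Without every interval that a Prdm9KO peak touches, the shares and ratios of B6 and RJ2 PRDM9 stayed on the same side of the threshold, and they did so without the PRDM9 peaks that touch one (0.682 and 0.630 per Mb), an alternative added after seeing the data.

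Against their own surroundings, broad intervals passed the threshold for B6 PRDM9 and for no other of the 6 lists. In 20 kb on each side, with common intervals removed, B6 PRDM9 had 1.16 centres per Mb against 5.72 inside, a ratio of 4.92 (95% interval 3.69 to 6.53, adjusted p = 4.39e-25, conditional exact test). RJ2 PRDM9 had 5.32 outside and 6.86 inside, a ratio of 1.29 (1.04 to 1.59, adjusted p = 0.0541, conditional exact test). DMC1 had 6.76 outside and 6.10 inside in B6, a ratio of 0.903 (0.721 to 1.12), and 7.05 and 6.23 in RJ2, a ratio of 0.883 (0.708 to 1.09), and neither passed. Over the autosomes and the X the lists had 0.986 B6 PRDM9 and 5.59 B6 DMC1 peaks per Mb. The narrower intervals, whose own flanks were not counted, held 8.38 B6 PRDM9 centres per Mb. A B6 PRDM9 rate above the 1.16 per Mb of these flanks was thus not particular to broad intervals.

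H3K4me3 found in 1 strain lay beside broad intervals more often than beside the narrower ones. An RJ2-specific interval was within 1000 bp of 347 broad intervals (12.3%, 95% interval 11.1 to 13.6%) and of 715 of the narrower ones (6.44%, 5.99 to 6.92%). For B6-specific intervals the shares were 4.97% (4.20 to 5.84%) and 3.34% (3.02 to 3.69%). Those beside broad intervals had a median of 521.5 bp in RJ2 and 547 bp in B6, against 780 and 722 bp over their lists. Whether they are edges of the broad domain or sites of their own was not tested.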

How the data were processed

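ChIP-seq peaks of PRDM9, DMC1 and H3K4me3 were analysed from 9 lists deposited by the authors, who mapped reads to mm9. They called PRDM9 and DMC1 peaks with MACS2 at a number set by reproducibility between replicates, except those of Prdm9KO. The Prdm9KO peaks, from 1 ChIP library, were called at a relaxed p-value, looser than that of the B6 and RJ2 lists. H3K4me3 peaks were called with an older MACS. PRDM9 and DMC1 replicates were pooled. The submitters' processing notes name BWA, Bowtie, Bowtie2, CASAVA and MACS2. The deposited unit is other than a count or signal: interval positions, with placeholder columns 4 to 6 and no score. The authors kept H3K4me3 peaks called in several sets of reads, removed PRDM9 peaks shared by the strains and describe a removal of those over Prdm9KO peaks, which 252 of the deposited RJ2 peaks nevertheless touch, so widths and overlaps depend on those steps, and an intersection can split a domain. The members and gene lists were chosen with earlier results of these data known.

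Positions were read as they stand, and starts and exons taken from GENCODE vM1 on NCBIM37, which is mm9. Shares carry Clopper-Pearson intervals and were compared with Fisher's exact test. Rates were compared with a conditional exact binomial test, two-sided. Benjamini-Hochberg adjustment ran over the 6 lists of each comparison. The functions were tested on simulated peaks of known rate. Named intervals are the widest, those with most peaks, those with Spo11KO, Prdm9KO or both PRDM9 and DMC1 peaks, members of gene lists, and those beside the limit. The 10 libraries of H3K36me3 were not used. Python 3.11.15, numpy 2.4.6, pandas 2.3.3, scipy 1.17.1 and matplotlib 3.10.9 were used.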

Additional observations from a re-analysis of the deposited data

Results flagged for a closer look

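The ratio of peaks per Mb in broad over 1000 to 2000 bp intervals differed between PRDM9 and DMC1 of RJ2. It was 0.631 for PRDM9 and 1.23 for DMC1, and the first was 0.513 of the second (p = 7.47e-04, adjusted over 6 pairs of lists 0.00448, Fisher's exact test of the counts). Of the 107 RJ2 DMC1 sites in broad intervals 53 met an RJ2 PRDM9 peak, while the test takes the 2 lists as independent. The DMC1 ratio turned to 0.956 with merged intervals and to 0.946 against all intervals under 4000 bp, and the PRDM9 ratio did not pass with merged intervals (0.774) or for wide peaks (0.665). It was 0.726 for DMC1 when any 1 bp of a site counted, a count that adds hits in narrow intervals by construction and so does not bear on the difference. In B6 the same comparison gave 0.686 and did not pass (adjusted p = 0.184, Fisher's exact test). The 2 assays differ in age of the mice and in peak width, whose part was not tested.

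The share of the PRDM9 list that lies in broad intervals differed between B6 and Spo11KO mice, 3.54% against 0.561%, a ratio of 6.31 (Fisher's exact test over peaks, p = 1.36e-08). It is not particular to broad intervals, since 5.69% and 0.561% of the lists lay in those of 1000 to 2000 bp.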

How the results depend on the processing

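Of 140 values under other settings, 114 kept their direction and their side of the threshold. Calls lost were those of PRDM9 per Mb for B6 at 3000 bp and more (0.771), for wide peaks (0.977 in B6, 0.665 in RJ2) and for merged intervals (0.832 and 0.774), the Prdm9KO share at 5000 bp and more (1.48) and for wide peaks (1.90), and the Spo11KO share for merged intervals (1.71). Calls gained were Prdm9KO per Mb at 5000 bp and more (0.385), against all intervals under 4000 bp (0.589), on autosomes (0.538) and from 1 bp of overlap (0.508), B6 DMC1 per Mb from 1 bp (0.684), and B6 DMC1 with starts within 1000 bp (1.97). The direction turned for Spo11KO per Mb against all intervals under 4000 bp (0.688), on autosomes (0.982) and for merged intervals (0.475), with starts within 1000 bp (1.58) and against flanks of 5 kb (1.18), and for B6 DMC1 on autosomes (1.05) and without Prdm9KO intervals (1.01). It turned for RJ2 DMC1 against all intervals under 4000 bp (0.946), for merged intervals (0.956) and from 1 bp (0.726, then past the threshold), and for PRDM9 with DMC1 alone, an alternative added after seeing the data (1.35 in B6, 1.26 in RJ2). DMC1 peaks are wide, so an overlap of 1 bp adds more hits in narrow intervals by construction. The cause of the other changes was not tested. No paired analysis was possible because the lists pool the replicates and no value per replicate was used, and for the same reason no replicate could be left out. Without read counts, the strength of a peak and the depth behind it limit what an absent peak shows.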
